A study of Mus musculus with 16 samples.

Results

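H3K27ac was compared between late and early T helper 2 (Th2) cells that kept Bcl11b, in 4 ChIP-seq libraries out of 16 in the series, chosen by their labels: 2 early WT and 2 late WT. All cells were CD4 T cells from C57BL/6 mice with Bcl11b fl/fl alleles and CreERT2, a Cre recombinase that is activated by 4-hydroxytamoxifen (4-OHT). Early WT cells had 4 days of Th2 culture without 4-OHT. Late WT cells went through that culture (4 days), a rest of 1 day with IL-2, and a second Th2 culture of 4 days, also without 4-OHT. The KO groups, used here as a second set of libraries and in the shared fit, had 2 libraries per stage. They received 4-OHT in the first culture (early KO) or in the second (late KO), so loss of Bcl11b and exposure to 4-OHT cannot be told apart. The labels name the starting cells naive but record a CD4+CD44high sort, a gate for activated or memory cells. They do not say that replicates were separate cultures or animals, so p-values measure only the spread between these libraries, which may be technical. In bulk cells, a change in the share of cells of one kind and a change within each cell cannot be told apart.

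Acetylation of histone H3 at lysine 27 marks active promoters and enhancers and is laid down by p300 and CBP. In helper T cells, the factors TCF-1 (encoded by Tcf7) and LEF-1 and the homing receptor CCR7 belong to the naive and memory programme. GATA3 directs the Th2 programme, in which IL-4, IL-5 and IL-13 are made. T-bet (Tbx21) directs the Th1 programme, and granzymes and inflammatory chemokine receptors belong to effector cells more widely.

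Each library was a list of islands, stretches of mm9 in which the authors' peak caller found H3K27ac. The early WT lists held 26548 and 28410 islands over 107.3 and 102.8 Mb, and the late WT lists 26611 and 30676 islands over 102.1 and 102.8 Mb. These totals overlapped between stages, and the read depth behind them is unknown. When lists were compared in pairs over the 200-bp windows that at least one of them covered, early replicates shared 70.3%, late replicates 76.5%, and lists of different stages 60.1% to 61.5%. The lists of one stage were thus more alike than lists of different stages. All 15 T cell identity genes (among them Cd3e, Cd4, Lck and Zap70) held islands in the WT lists, as did Gata3, Il4, Il5 and Il13. Markers of other cell types held islands in a WT list at 3 of 5 B cell, 4 of 6 myeloid, 2 of 5 NK and CD8, and 5 of 5 erythroid and epithelial genes. Summed over each list's windows, B cell genes held 26 and 25.8 kb in early and 34.6 and 31.6 kb in late lists. Myeloid genes held 24 and 31.4 kb in early and 28.4 and 28.6 kb in late lists. NK and CD8 genes held 7.2 and 7 kb in early and 7.2 and 6.4 kb in late lists. Erythroid and epithelial genes held 7.6 and 9 kb in early and 8.6 and 10 kb in late lists. Cd79a, a chain of the B cell receptor complex, held the most of these, 24.2 and 22 kb in early and 20.2 and 18.6 kb in late lists, while Pax5 and Ms4a1 (B cells), Lyz2 and Csf1r (myeloid cells), and Ncr1, Klrd1 and Cd8a (NK and CD8 cells) were listed at 0 in all 4. The part of other cell types in the results was not tested.

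With the second round of Th2 culture, H3K27ac was lost over Tcf7, Ccr7, Foxp1 and other naive and memory genes. It was gained over Gzma, Gzmb and inflammatory chemokine receptor genes and over part of the Th2 programme, including Il5, Il1rl1, Pparg and Areg. In early cells the Il4 window was already almost covered, and most of the Il13 window was covered. Coverage was measured as kb under islands in 10-kb bins and in a window around each gene. Changes were tested per bin with limma on log2(kb + 0.5), with p-values adjusted by Benjamini-Hochberg over 39126 bins. A bin is said to rise or fall where its adjusted p was under 0.05. Over the genome 9.54% of bins rose (3733) and 6.77% fell (2648), 16.3% in all. Both late lists were above both early lists in 22.2% of bins and below them in 21.6%, which is the background for values said not to overlap. In this text a window is the gene with about 10 kb on either side, placed from approximate mm9 positions written by hand and not from an annotation. Neighbouring windows can share bins, and a bin cannot exceed 10 kb.

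Falls prevailed at naive and memory genes, and rises at Th2 and at effector and Th1 genes. Of 148 tested bins at 17 naive and memory genes, 27 (18.2%) fell and 2 rose. Their median log2 change was -0.30, against 0.04 over all bins. Fallen bins lay at 9 genes and risen bins at 2. Of the risen bins, 1 also lies in the Cxcr6 window and is counted with the effector and Th1 genes too. At 25 Th2 genes, 24 of 102 bins (23.5%) rose and 2 fell, with a median of 0.34. At 27 effector and Th1 genes, 33 of 96 bins (34.4%) rose and 3 fell, with a median of 0.41. Risen bins lay at 11 Th2 and 15 effector and Th1 genes. T cell identity genes had 2 risen and 4 fallen bins of 97. Constitutive genes had 1 risen and 0 fallen bins of 27 (limma), with 2 higher and 0 lower at an unadjusted p under 0.05. Keeping the upper 50% of each list left 21 risen effector and Th1 bins, and windows with no margin left 15 risen Th2 and 21 risen effector and Th1 bins. The genes were chosen with earlier results of these libraries known, so the counts describe the lists.

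**Figure D1:**
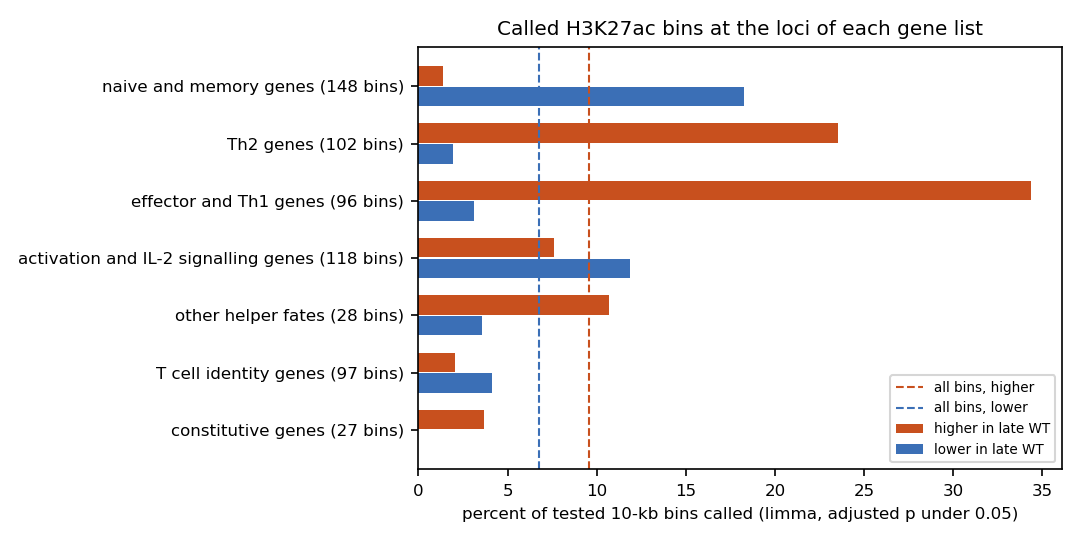
Percent of tested 10-kb bins that rose (orange) or fell (blue) in late against early WT cells, by gene list. Dashed lines mark the percent over all bins (9.54 and 6.77). The lists of other cell types are not drawn. In these, 3 of 12 B cell bins (25%) and 1 of 12 myeloid bins rose. At NK and CD8 genes 0 of 4 bins rose, and at erythroid and epithelial genes 1 of 7. The effector and Th1 bar reaches 34.4% risen, and the naive and memory bar 18.2% fallen.

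Tcf7, which encodes the TCF-1 factor of naive and memory T cells, lost its whole island. The early WT lists covered 20.4 and 21.8 kb of its window, and both late WT lists covered 0. The main island, chr11:52078001-52098400 (mm9), was 20.4 and 20 kb long in the early lists and stood at a mean score percentile of 96.7 within them. It was the widest region found in both early and neither late list. The 3 bins that hold the island fell (limma adjusted p = 0.000282, 0.000282 and 0.00116).

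Ccr7, the receptor for the lymph node chemokines CCL19 and CCL21, went from 29 and 27.8 kb to 12 and 14.2 kb. The bin at chr11:99020001-99030000 held 6.8 and 7 kb in early and 0 in late lists (limma adjusted p = 0.000282), while an island at chr11:99002801-99017800 stayed in all 4 lists. Early and late values of Ccr7 did not overlap. Its 2 fallen bins became 1 without early WT replicate 1.

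Lef1, the partner of TCF-1, kept most of its acetylation. Its window held 110.6 and 110.6 kb in early and 85.8 and 81.8 kb in late WT cells, with 3 of 14 tested bins fallen. That count was 1 in the fit of WT libraries only and without early WT replicate 2 or any one of the 4 KO libraries. Bach2 encodes a repressor that restrains effector genes, and it went from 151.8 and 164.6 kb to 117.6 and 120.2 kb, with 3 of 31 bins fallen (5 without early WT replicate 1, late KO replicate 1 or late KO replicate 2). Foxp1, a forkhead factor of T cell quiescence, showed a deeper loss. Its window of 630 kb held 61.4 and 69.6 kb in early and 12.6 and 21.8 kb in late lists, and 9 of 29 bins fell, or 5 when only the upper 50% of each list was kept. The bin at chr6:99320001-99330000 had 8.6 and 9.4 kb in early and 0 in late cells (limma adjusted p = 0.000282).

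Il6ra, which encodes the IL-6 receptor alpha chain, went from 50.6 and 47.8 kb to 37.2 and 37.6 kb, with 2 bins fallen (1 without late WT replicate 1). Bcl2, the survival factor, went from 125.4 and 117 kb to 96.8 and 97.4 kb, also with 2 bins fallen. The Bcl2 calls were lost with lists cut to equal length. They numbered 5 with quantile normalization, 4 in the fit of WT libraries only and without early KO replicate 1 or 2, and 1 without early WT replicate 1. Il7r, the IL-7 receptor, held 25.8 and 27.2 kb in early and 17.4 kb in both late lists, but 0 of its 4 bins passed (limma), and 2 were lower at an unadjusted p under 0.05. Satb1, a chromatin organiser of T cells, had 92.2 and 91.2 kb in early and 95.2 and 92.6 kb in late lists with 0 of 12 bins called (limma), and 1 was higher at an unadjusted p under 0.05.

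**Figure D2:**
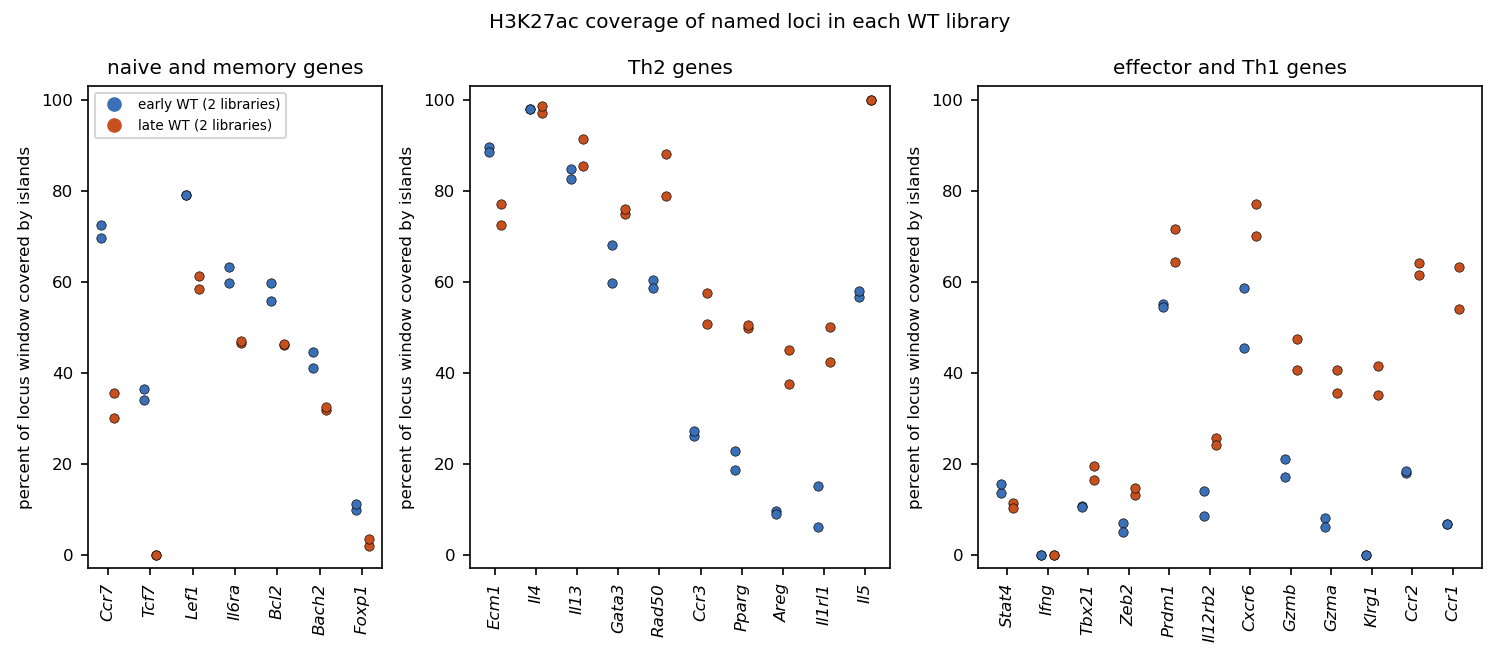
Percent of each named gene's window covered by H3K27ac islands in every early (blue) and late (orange) WT library, 1 point per library, with genes ordered within each list by the size of their change. Late points lie below early points at all 7 naive and memory genes shown, and Tcf7 falls to 0. Apart from Tcf7 and Ccr7, these genes were named for having at least 2 called bins, so their shared direction describes that choice. Of the 17 naive and memory genes with a window, late values lay below early values at 11 and above them at 4.

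Among Th2 genes the cytokine locus itself split. Il4 held 39.2 and 39.2 kb of a 40-kb window in early and 38.8 and 39.4 kb in late lists, and Il13 held 25.4 and 24.8 kb of 30 kb in early and 25.6 and 27.4 kb in late lists. At Il4 0 of 4 bins and at Il13 0 of 3 bins passed (limma), and 0 had an unadjusted p under 0.05. The Il4 window left little room for a gain. The Il13 window was less full: its bin at chr11:53450001-53460000 held 5.4 and 4.8 kb in early and 5.6 and 7.4 kb in late lists. Il5, the eosinophil growth factor at the other end of the locus, went from 17 and 17.4 kb to 30 and 30 kb, the whole window. All 3 Il5 bins rose. The bin at chr11:53540001-53550000 had 4.8 and 3.8 kb in early and 10 kb in both late lists (log2 change 1.18 ± 0.14 SE, limma adjusted p = 0.00223). Rad50, whose introns hold the locus control region of the Th2 cytokines, went from 54.4 and 52.8 kb to 71 and 79.2 kb. Its 3 risen bins lay at chr11:53510001-53540000, the Il5 end of the window, and 2 of them are shared with the Il5 window. No other Rad50 bin was called. Nearer Il13, the region at chr11:53456001-53491800 held 29.4 and 28 kb in early and 32.2 and 34.8 kb in late lists. A change at the control region itself was not tested. Without late WT replicate 2, 1 Rad50 bin rose. Over the 140 kb from Il4 to Il5, coverage was 98.4 and 95.8 kb in early and 119.8 and 128.6 kb in late lists, and 4 of 14 bins rose.

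Gata3 held 29.8 and 34 kb of 50 kb in early and 37.4 and 38 kb in late lists. Its late values were above its early values, but 0 of 5 bins passed (limma), with 1 higher at an unadjusted p under 0.05. In 7 of the alternatives run, among them no centring and the fit of WT libraries only, 1 Gata3 bin passed. A run of 7 neighbouring bins that all rose lay 440 kb from the Gata3 window, at chr2:9250001-9320000. It held 16.2 and 15.2 kb in early and 47 and 46.8 kb in late WT lists. Whether that run belongs to Gata3 was not tested.

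Other genes of the Th2 list gained over larger parts of their windows. Il1rl1 encodes ST2, the IL-33 receptor, and went from 4.2 and 10.6 kb to 29.6 and 35 kb. In its bin at chr1:40490001-40500000 both early lists were at 0 and the late lists held 5.2 and 8.6 kb (limma adjusted p = 0.000375). Pparg, a nuclear receptor used by Th2 cells, went from 34.2 and 28 kb to 74.6 and 75.6 kb, with 6 of 13 bins risen. Areg, which encodes the epithelial growth factor amphiregulin, went from 3.8 and 3.6 kb to 18 and 15 kb, with all 3 bins risen. Ccr3, the eotaxin receptor, went from 13 and 13.6 kb to 25.4 and 28.8 kb. None of these 4 genes had overlapping early and late values. The risen bins of Il1rl1 numbered 4, and 2 without late WT replicate 1 or 2, and those of Ccr3 2, and 4 without early KO replicate 1 or 2.

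Maf and Il10 each had 1 risen bin. Maf, a factor that drives Il4 and Il10, went from 6.4 and 6 kb to 16.2 and 16.6 kb, and Il10 from 28.6 and 28.6 kb to 37 and 36.8 kb. Ecm1, which helps Th2 cells leave lymph nodes, moved the other way: its window held 35.8 and 35.4 kb in early and 30.8 and 29 kb in late lists, and 2 bins fell. Il9, the cytokine of the related Th9 state, was listed at 0 in all 4 WT lists.

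The effector and Th1 list had the highest share of risen bins, with long gains over a cluster of chemokine receptors on chromosome 9. Over the 100 kb from Ccr1 to Ccr3, coverage was 23.6 and 21.8 kb in early and 55.8 and 62.2 kb in late WT lists, and 6 of 9 tested bins rose. Ccr1 went from 2 and 2 kb to 16.2 and 19 kb. Ccr2, the receptor for CCL2, went from 7.2 and 7.4 kb to 25.6 and 24.6 kb, with 3 of 3 bins risen. Cxcr6, a receptor of tissue-homing effector cells, went from 23.4 and 18.2 kb to 30.8 and 28 kb with 2 bins risen. In 1 of these, chr9:123700001-123710000, the late lists held only 0.8 and 0.6 kb and the early lists 0. That bin is also counted as a risen naive and memory bin. Of the Cxcr6 bins 1 rose without early WT replicate 1, with quantile normalization, with lists cut to equal length and with the upper 50% of each list.

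Of the granzyme genes, Gzma and Gzmb gained acetylation too. Gzma went from 3.2 and 2.4 kb to 14.2 and 16.2 kb, with all 4 bins risen, and Gzmb from 6.8 and 8.4 kb to 16.2 and 19 kb, with 3 of 4 risen. The Gzma count was 2 without late WT replicate 1 or 2, and the Gzmb count 1 without early WT replicate 1, late WT replicate 2, late KO replicate 1 or late KO replicate 2. Gzmk, another granzyme gene, had 8.4 and 7.8 kb in early and 11.4 and 10 kb in late lists with 0 of 4 bins called (limma), and 1 was higher at an unadjusted p under 0.05. Klrg1, an inhibitory receptor of terminal effector cells, was at 0 in both early lists and at 16.6 and 14 kb in the late lists, and all 4 of its bins rose (limma adjusted p from 0.000288 to 0.00119), against 2 with the upper 50% of each list. Prf1, which encodes perforin, was listed at 0 in all 4. Zeb2, a factor of terminal effector cells, went from 11.8 and 8.4 kb to 22.2 and 25 kb with 3 bins risen (1 with the upper 50% of each list).

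Genes of the Th1 programme did not move in one direction. Ifng was listed at 0 in all 4 lists. Tbx21 held 5.4 and 5.2 kb in early and 8.2 and 9.8 kb in late lists. A late-only region at chr11:96973001-96977600 lay in its window, covered over 4 and 4.6 kb in the late lists and 0 in the early lists, and 1 bin there rose (limma adjusted p = 0.000393). With the upper 50% of each list that call was absent and a Tbx21 bin was called lower. Stat4, the signal transducer of IL-12, went from 20.4 and 23.2 kb to 17 and 15.4 kb with 2 bins fallen and 1 risen. The fallen Stat4 bins numbered 1 with lists cut to equal length and without early WT replicate 2, late WT replicate 1, late WT replicate 2 or either early KO replicate. With the upper 50% of each list its fallen bins were not called and a higher bin was. Il12rb2, a chain of the IL-12 receptor, had 15.4 and 9.4 kb in early and 28.2 and 26.4 kb in late lists. Its 2 risen bins lost the call with no centring and without early WT replicate 2, late WT replicate 1 or late WT replicate 2. Prdm1, which encodes Blimp-1, went from 27.6 and 27.2 kb to 35.8 and 32.2 kb with 2 bins risen, a call lost without early WT replicate 2 or late WT replicate 1.

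**Figure D3:**
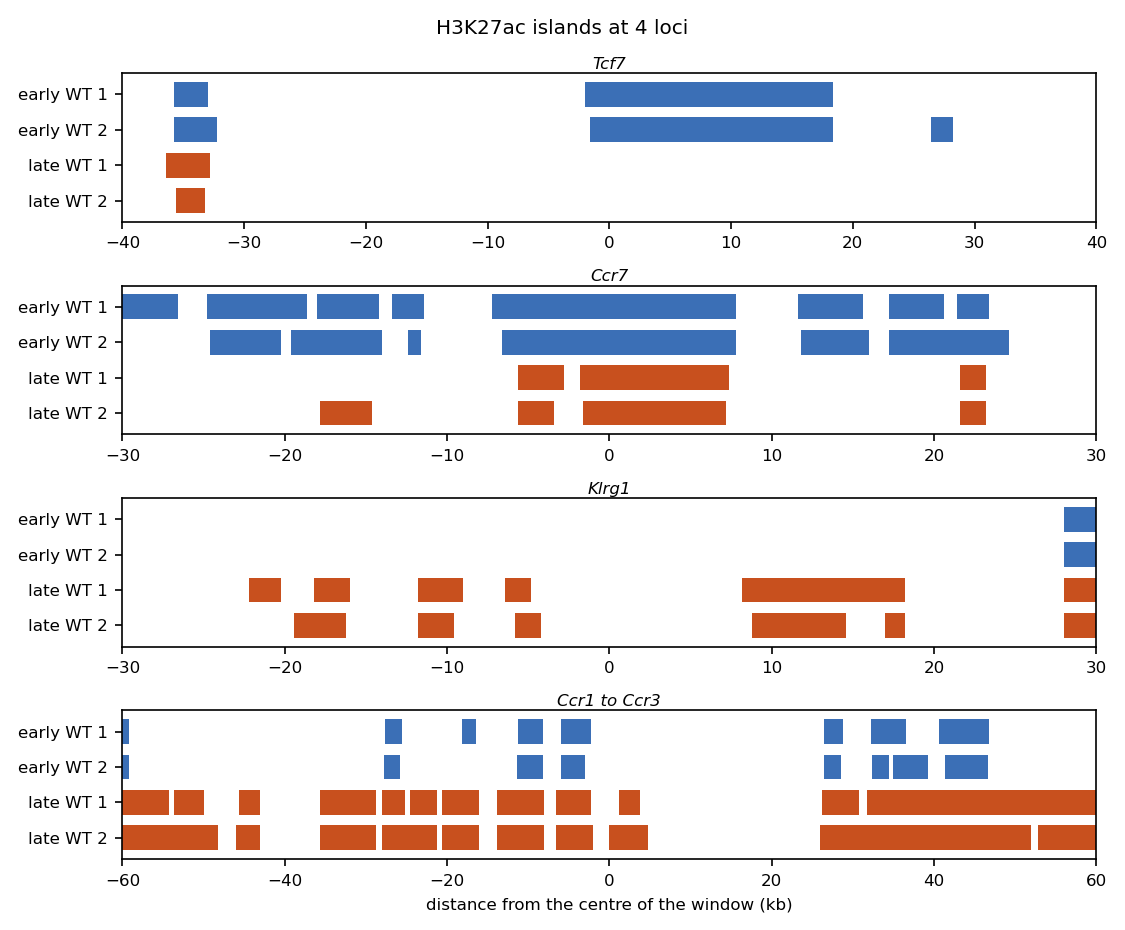
H3K27ac islands in each WT list (early blue, late orange) around Tcf7, Ccr7, Klrg1 and the receptor cluster from Ccr1 to Ccr3, by distance in kb from the centre of each window. The wide Tcf7 island is absent from both late lists, the Klrg1 islands from both early lists, and the cluster islands merge into longer ones in late cells.

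Genes of activation and IL-2 signalling had 9 risen and 14 fallen bins of 118, with a median log2 change of 0.04. The falls lay mainly at Nfatc1, a calcium-dependent factor of T cell receptor signalling. Nfatc1 went from 112 and 109 kb to 47.4 and 45 kb, and 9 of its 14 bins fell. Ctla4, an inhibitory receptor, went the other way, from 24 and 25.4 kb to 33.4 and 34 kb, with 3 bins risen, and Batf, an AP-1 factor, from 33.8 and 26 kb to 44 and 42.6 kb, with 2 risen. Of the 12 tested B cell bins, 3 rose, all at Ebf1, and its window held 0 and 2.6 kb in early and 13.2 and 11.4 kb in late lists.

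To show the DNA that these gains surround, the 250 bases before the RefSeq start site (build GRCm38.p6, not the mm9 of the islands) are given for Il5, Gzma and Ccr1, one Th2 and a pair of effector genes with risen bins. They were chosen after their values and matches had been seen. Capitals mark matches, on either strand, to short motifs. The letters searched were AGATAA for the GATA factors that include GATA3. For RUNX factors they were TGTGGT, and for the AP-1 family of Fos, Jun and Batf they were TGANTCA. The TCF and LEF family was searched as CTTTGA. For the STAT factors, which act under cytokine receptors, the letters were TTCNNNGAA.
Il5, chr11:53720544-53720793, plus strand: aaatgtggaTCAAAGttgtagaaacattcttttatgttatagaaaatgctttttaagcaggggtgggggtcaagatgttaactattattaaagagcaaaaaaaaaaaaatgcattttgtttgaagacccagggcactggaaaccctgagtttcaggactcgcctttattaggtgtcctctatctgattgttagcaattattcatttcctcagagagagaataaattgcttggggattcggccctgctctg
Gzma, chr13:113100982-113101231, minus strand: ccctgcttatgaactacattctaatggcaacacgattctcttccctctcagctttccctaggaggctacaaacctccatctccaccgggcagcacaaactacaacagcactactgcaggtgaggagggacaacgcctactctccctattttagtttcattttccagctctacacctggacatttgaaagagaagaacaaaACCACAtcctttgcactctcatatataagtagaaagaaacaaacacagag
Ccr1, chr9:123968693-123968942, minus strand: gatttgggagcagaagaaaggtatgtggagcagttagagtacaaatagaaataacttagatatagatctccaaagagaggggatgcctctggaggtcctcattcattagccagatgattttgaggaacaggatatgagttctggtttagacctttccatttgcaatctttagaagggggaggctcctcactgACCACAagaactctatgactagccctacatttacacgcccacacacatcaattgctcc

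The match in Il5 was to the TCF and LEF motif at position -241 from the start site, and those in Gzma and Ccr1 were to the RUNX motif at -50 and -58. Of the 16 named genes with at least 2 risen bins, 13 had a promoter in the RefSeq table, and 5 of these held a RUNX match, 4 AP-1, 3 GATA, 2 TCF and LEF and 2 STAT. Of 10 named genes with at least 2 fallen bins, 8 had a promoter, of which 0 held a RUNX match and 3 a TCF and LEF match. A gene was counted where any of its promoters held the match. Counted the same way over the 26994 genes of the table, 15.9% held a RUNX match, 15.8% TCF and LEF, 11.4% GATA, 8.12% STAT and 7.82% AP-1. Of all 32817 promoters, 14.04% held a RUNX match, 13.8% TCF and LEF, 9.99% GATA, 7.01% STAT and 6.75% AP-1. Each family was searched with the letters given above only, so sites with other letters are not marked or counted. These counts describe letters in a short stretch beside each gene and show nothing about binding.

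Regions found at one stage alone were narrower and lower in score, at the median, than regions found at both. Of 32855 regions merged over the 4 WT lists, 20201 (61.5%) were in all 4, 3149 (9.58%) in both late and neither early list, and 1827 (5.56%) in both early and neither late list. Late-only regions had a median width of 2.2 kb and a median score percentile of 20.7, early-only regions 3 kb and 18.3, and shared regions 4 kb and 61.9. Late-only regions numbered 5526 without late WT replicate 1, while early-only regions numbered 3517 or 2819 when early WT replicate 1 or 2 was left out and 2907 when late WT replicate 2 was. With 1 list left at a stage, presence or absence is asked of that list only. Some late-only regions stood far above these medians in width, score or both. The late-only region at chr8:10444801-10458800 covered 14 and 11.6 kb in the late lists at a percentile of 97.8, and the widest late-only region, chr2:179925401-179947400, covered 18.8 and 17.4 kb at a percentile of 35.0.

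Most called bins were empty at one stage. No island was found in the lower group in 62.3% of risen and 59.2% of fallen bins, where the fitted change depends on the pseudocount. Bins covered in all 4 WT lists rose by a median log2 of 0.91 (1273 bins) or fell by 0.96 (955 bins). Shared regions also changed width: 3902 (19.3%) were wider in both late lists than in either early list and 4762 (23.6%) narrower, shares near the 22.2% and 21.6% of all bins whose values did not overlap, and 262 and 256 did so by at least 5 kb. Keeping the upper 50% of each list left 1845 risen and 1178 fallen bins. Of the 3733 risen bins 907 (24.3%) were then still called higher, and of the 2648 fallen bins 533 (20.1%) lower. The balance of the calls turned without late WT replicate 2, to 2521 risen and 2763 fallen bins. Without early WT replicate 1 or 2 the bins that fell numbered 1812 and 1768 (3390 and 3705 rose).

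Some changes ran over many neighbouring bins. Runs of at least 3 bins called the same way numbered 142 among risen bins (505 bins, 13.5%) and 64 among fallen bins (225 bins, 8.50%). The longest rising runs had 8 bins each. The one at chr18:12760001-12840000 went from 1.8 and 1.8 kb to 39 and 35.4 kb. At chr7:148130001-148210000, the other, coverage went from 22 and 22 kb to 76.4 and 76 kb, and at chr11:53170001-53230000, between the Tcf7 and Il4 windows, from 1.8 and 0 kb to 39.4 and 29 kb. At chr8:10430001-10490000, around the high-scoring late-only region, it went from 6.4 and 5.4 kb to 51.4 and 44.2 kb.

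Among falling runs chr8:131020001-131090000 was emptied, from 24.4 and 26.6 kb to 0 in both late lists. At chr10:39140001-39220000, coverage went from 48.2 and 48 kb to 17.8 and 19.6 kb, at chr16:52030001-52100000 from 54.4 and 55.8 kb to 16 and 17.4 kb, and at chr14:28160001-28220000 from 39.8 and 30 kb to 5.4 and 6 kb. The run at chr18:80820001-80880000 lay in the Nfatc1 window and went from 51 and 47.2 kb to 6.4 and 4.2 kb. Risen bins made up 11.0% of those on chromosome X, where 2.77% fell, and 5.82% of those on chromosome 17, where 8.65% fell.

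The 10 bins with the largest rises were at 0 in both early WT lists. They held 10 and 10 kb at chr7:148160001-148170000, 9.4 and 9.4 kb at chr10:28400001-28410000, 9 and 8.4 kb at chr1:80010001-80020000, 9.8 and 7.6 kb at chr5:91110001-91120000 and 9 and 7.8 kb at chr3:107630001-107640000 in late lists. Of the others, 1 lay beside the receptor cluster (chr9:123960001-123970000), 2 in the chromosome 8 run and 1 in the widest late-only region. Their adjusted p ran from 0.000282 to 0.00364 (limma). The 10 bins with the largest falls were at 0 in both late lists. Beside Tcf7, Nfatc1 and Foxp1 they lay at chr18:60990001-61000000 (9.4 and 9.2 kb in early lists), chr4:119740001-119750000 (8.8 and 9.4 kb), chr9:59760001-59770000 (9.2 and 8.8 kb), chr3:83790001-83800000 (10 and 7.8 kb), chr12:109910001-109920000 (9.2 and 8.2 kb), chr15:59960001-59970000 (7.4 and 10 kb) and chr1:92970001-92980000 (9.4 and 7.8 kb). Their adjusted p ran from 0.000282 to 0.00127 (limma).

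The contrast of late with early KO compares libraries that the WT contrast does not compare. A single fit served both, so the KO libraries took part in the bin filter, centring and spread behind the WT calls. Of the 16 named genes with at least 2 risen bins in WT, 13 had at least 1 bin in the window that rose with time in KO cells, where 4.65% of all bins rose. The same held for 32 of all 141 listed genes with a tested bin (22.7%). Il12rb2, Klrg1 and Zeb2 had none. Of the 10 with at least 2 fallen bins, 9 had a bin that fell in KO cells, where 4.95% of all bins fell, against 26 of the 141 listed genes (18.4%). Ecm1 had none, and Lef1 also had 1 bin that rose in KO cells. A wide window has more bins in which to find one. Over all bins that rose in WT, 27.9% also rose in KO and 0.884% fell, and of those that fell in WT 26.5% fell and 0.831% rose. Mean coverage in KO cells changed by 1.12 kb at the bins risen in WT and by -0.934 kb at the bins fallen in WT.

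**Figure D4:**
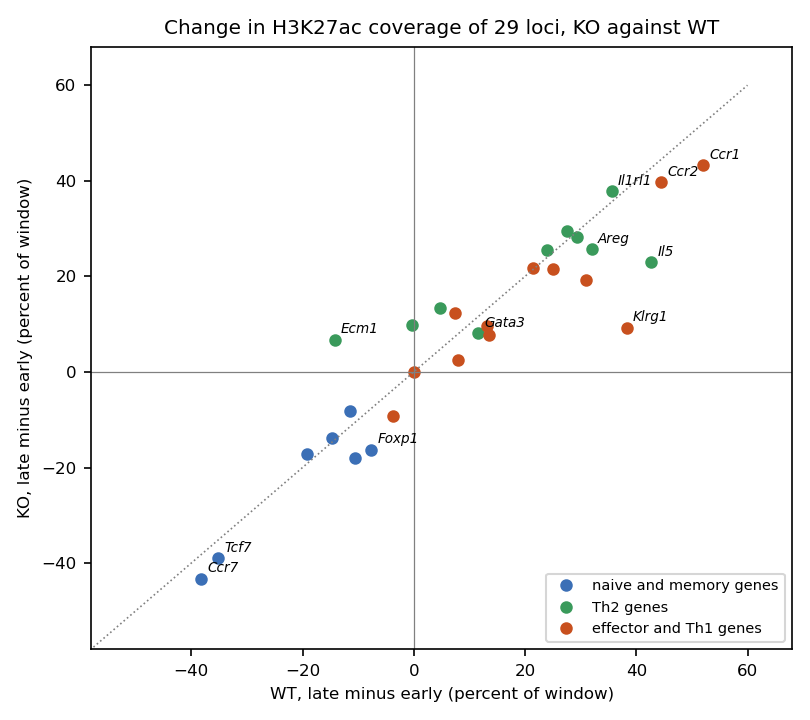
Late minus early H3K27ac coverage, in percent of the window, for 29 named loci in WT (x) and KO cells (y), with means of 2 libraries per stage and a dotted line of equal change. Most loci lie near the line, with Klrg1 far to its right and Ecm1 on opposite sides of 0.

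Klrg1 shows how the genotypes differed. Its window held 15.8 and 19.4 kb in early KO lists, against 0 and 0 kb in early WT, so that the late WT level was already present in early KO cells. Ecm1 held 27.2 and 27.2 kb in early KO, below both early WT lists. Of bins that rose in WT 41.5% differed between genotypes in their change with time, and of those that fell 41.8%, where 10.1% of all bins differed (limma interaction, adjusted p under 0.05). The interaction uses the WT libraries that chose these bins, and those shares are given as a description.

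**Figure D5:**
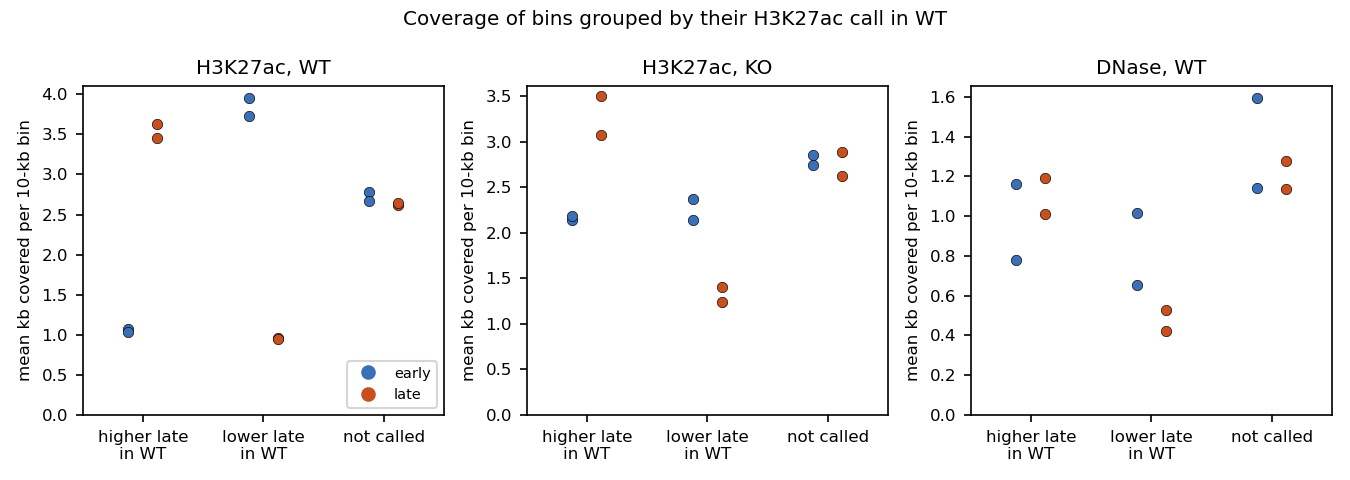
Mean kb covered per 10-kb bin in each library, for bins that rose, fell or were not called in WT H3K27ac; panels show H3K27ac in WT, H3K27ac in KO and DNase in WT, with early in blue and late in orange. The WT panel shows the values whose change chose the bins. The KO libraries entered the same fit through the bin filter, the centring and the estimate of spread, and the DNase libraries did not.

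DNase islands, a measure of open chromatin, were compared at the same bins in WT cells. Where H3K27ac fell, the early DNase lists covered 0.652 and 1.02 kb per bin and the late lists 0.422 and 0.529 kb, so late values lay below early values. Bins not called in H3K27ac went from 1.14 and 1.60 kb to 1.14 and 1.28 kb. Where it rose, early lists covered 0.779 and 1.16 kb and late lists 1.01 and 1.19 kb, which overlap. DNase coverage was higher late in 46.3% of risen, 11.6% of fallen and 30.4% of uncalled bins. It was lower late in 29.0%, 47.2% and 46.4%. These shares also count bins without a DNase island in any WT list, which can be neither higher nor lower. Such an island was found in 79.7% of risen, 61.6% of fallen and 82.0% of uncalled bins. Among bins with one, 1083 of 2974 risen, 1251 of 1630 fallen and 15190 of 26842 uncalled bins were lower late. The mean DNase change at risen bins was 0.133 kb, and it turned to -0.0566 kb without DNase early WT replicate 1. At fallen bins it was -0.360 kb, and -0.177 kb without DNase early WT replicate 2. At Tcf7 DNase islands covered 11 and 16.6 kb in early and 1.4 and 1.6 kb in late lists. At Ccr7 they covered 16 and 16.4 kb in early and 9.6 and 9.8 kb in late lists, and at Ccr2 2.2 and 3.4 kb in early and 7.2 and 7.6 kb in late lists. At Gzma, DNase coverage was 2.8 and 2.8 kb in early and 2.2 and 2.8 kb in late lists, with no gain beside its H3K27ac.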

How the data were processed

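The deposited files are SICER island lists, one per library, made with CASAVA 2.18, Bowtie2 and SICER 1.1 on mm9, per the submitters' processing notes. Each island has a score, the authors' own value, and it served here for ranks and cut-offs inside one list alone. Duplicate removal, 200-bp windows, a 400-bp gap and an E value of 1 are read from the file names. Reads per island are not given in the sources used here.

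The kb of each 10-kb bin under islands were fitted as log2(kb + 0.5) with limma 3.58.1 (trended eBayes) over all 8 H3K27ac libraries in 4 groups, for bins covered in at least 2, after centring on the median of the 23773 bins covered in all 8. Where a group is at 0 or full in both lists, its spread is set by that limit. In simulated data on 39126 bins, 68.5% of 200 bins changed by a log2 of 2 were called, with 12 unchanged bins, and 0% at a log2 of 1. The changed bins were few and all covered in all 8 libraries. In the data 16.3% of bins were called, most of them empty at one stage. The adjustment for many bins therefore differs, and the simulated rates do not give the share of real changes found.

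No mm9 annotation was used. Gene windows for 151 of 153 listed genes are approximate positions written from memory, many of them worked out from remembered positions in the later build, and none was taken from an annotation. A window may be off by some kb, and a bin may belong to a neighbouring gene. A comparison with a RefSeq table of GRCm38 checked only chromosome and order, and start offsets were looked at to leave out a doubtful gene. Promoters are RefSeq sequences of GRCm38.p6, found for 26 of 31 named genes. The comparison, gene lists and windows were chosen with earlier results of these data known. Named genes are those of the naive and memory, Th2, and effector and Th1 lists with at least 2 bins called in one direction, 10 set genes (among them Tcf7, Ccr7, Gata3, Il4, Il13, Il5, Ifng, Tbx21 and Gzmb), the 10 largest rises and falls, and the 5 longest runs per direction. Other genes named (Il7r, Satb1, Maf, Il10, Il9, Prf1, Gzmk, Cd79a, Nfatc1, Ctla4, Batf and Ebf1) were chosen after their values were seen. Some listed genes count in the totals but are not reported here. Alternatives were other scalings, pseudocounts, filters, list lengths, windows and left-out libraries. Python 3.11.15 with numpy 2.4.6, pandas 2.3.3 and matplotlib 3.10.9, and R 4.3.3, were used.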

Additional observations from a re-analysis of the deposited data

Results flagged for a closer look

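The following results are given because the late minus early change differed between WT and KO cells by a test of that difference (limma interaction, adjusted p under 0.05). In KO, time and the culture in which 4-OHT was given cannot be told apart. The bins were chosen on WT values that the interaction also uses. At named loci, the bins called in WT whose change differed numbered 4 at Foxp1, 4 at Klrg1, 2 at Ecm1 and 2 at Zeb2. There was 1 such bin at each of Bach2, Bcl2, Ccr1, Gzma, Il6ra, Tbx21 and Tcf7.

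At Klrg1 the difference came with islands in early KO lists (15.8 and 19.4 kb) where early WT lists had none. In the Bcl2 bin at chr1:108590001-108600000, early WT lists held 3.4 and 2.4 kb and the other 6 H3K27ac lists 0. In the Gzma bin at chr13:113870001-113880000, late WT lists held 2 and 2.2 kb and all other lists 0.

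Among the bins with the largest rises the interaction adjusted p was 0.00286 at chr7:148160001-148170000, 0.00286 at chr10:28400001-28410000, 0.00286 at chr1:80010001-80020000, 0.00476 at chr8:10440001-10450000 and 0.00286 at chr8:10450001-10460000 (limma). In the first of these, early KO lists already held 6.8 and 8.2 kb. Among the largest falls it was 0.00323 at chr18:60990001-61000000, 0.00286 at chr4:119740001-119750000, 0.00782 at chr12:109910001-109920000 and 0.00744 at chr15:59960001-59970000 (limma). The bin on chromosome 4 was at 0 in both early KO lists.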

How the results depend on the processing

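With the upper 50% of each list by score, risen bins numbered 1845 and fallen bins 1178, effector and Th1 bins that rose 21, late-only regions 1214 and early-only regions 630, and the late minus early difference in covered length was 2.12 Mb (-2.58 Mb with whole lists). The Stat4 and Tbx21 loci then had 0 bins called in their reported direction and a bin called in the other. Windows with no margin, added after the data were seen, left 15 risen Th2 and 21 risen effector and Th1 bins. With each library left out in turn, late-only regions ranged from 3415 to 5526 and early-only regions from 1902 to 3517; with 1 list left at a stage, presence or absence is asked of that list only. Leaving out a library also assumes that the lone one varies like the other groups. The mean DNase change at risen bins ranged from -0.0566 kb without DNase early WT replicate 1 to 0.323 kb without DNase early WT replicate 2. The fit with a replicate block called 3483 risen and 2442 fallen bins. Same-numbered libraries deviated together by correlations of only -0.04 to 0.05, so the numbers were taken as names and not as pairs. The cause of these shifts was not tested. Without read counts, absence of an island is no proof that the mark was absent.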
